A study of Mus musculus with 273 samples.

Results

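The cerebral cortex was sampled at the same hours of the day in 2 successive cycles, and the later cycle is set here against the earlier one. The libraries are those of right cortex at zeitgeber time (ZT) 0, 3, 6, 9 and 12, where ZT is the hour within the daily cycle. They were chosen by their labelled time point, with no measured value. The second passage holds the 30 libraries labelled 24, 27, 30, 33 and 36 h, and the first passage the 30 labelled 0, 3, 6, 9 and 12 h, with 6 libraries at each time point. These 60 are part of 78 cortex libraries and of 273 in the series, which also covers striatum, hypothalamus and liver; cortex was sampled every 3 h over 36 h. All mice of both passages were wild-type C57BL/6J males aged 26 weeks, with no treatment named in the labels, and each library carries an animal code of its own. The lighting schedule, and whether the mice of the 2 passages were killed on the same days, are not given in the labels. The comparison asks whether miRNA levels measured at one clock hour returned to the same values a day later. Because p-values rest on the spread between these libraries, anything else that separates the passages is part of the difference.

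A miRNA is cut from a hairpin precursor and guides the Argonaute protein to messenger RNAs that pair with its seed, bases 2 to 8 of the mature strand, which lowers their stability and translation. Hairpins can lie alone, in introns of a host gene, or in clusters cut from a common transcript, and several loci can give the same mature strand. Cortical neurons are known for miR-124, miR-9, miR-128 and miR-138, for the activity-induced pair miR-132 and miR-212, and for the imprinted Dlk1-Dio3 cluster, whose miRNAs come from the maternal chromosome.

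The mature strands below belong to the hairpins on which the results turn, taken from RefSeq for GRCm38.p6, 5′ to 3′ with the seed in capitals. Each named arm was picked from the mature strands that RefSeq lists. The deposited values count whole hairpins and do not say which arm was read. The first group was lower in the second passage, and the 4 strands of the let-7 family share 1 seed, as do miR-132 and miR-212.
miR-129-5p: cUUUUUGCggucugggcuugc
miR-23a-3p: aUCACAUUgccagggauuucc
miR-125a-5p: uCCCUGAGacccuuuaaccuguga
miR-128-3p: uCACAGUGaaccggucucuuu
miR-132-3p: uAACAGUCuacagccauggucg
miR-212-3p: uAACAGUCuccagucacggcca
let-7b-5p: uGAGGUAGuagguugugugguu
let-7c-5p: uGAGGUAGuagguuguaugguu
let-7g-5p: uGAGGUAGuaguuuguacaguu
miR-98-5p: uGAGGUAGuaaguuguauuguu
The second group was higher in the second passage, and miR-449a and miR-449c share 1 seed.
miR-341-3p: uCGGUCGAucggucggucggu
miR-431-5p: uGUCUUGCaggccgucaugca
miR-879-5p: aGAGGCUUauagcucuaagcc
miR-301a-3p: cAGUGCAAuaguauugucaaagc
miR-138-5p: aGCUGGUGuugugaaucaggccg
miR-182-5p: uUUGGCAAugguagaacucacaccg
miR-96-5p: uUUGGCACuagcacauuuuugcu
miR-183-5p: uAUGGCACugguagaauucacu
miR-449a-5p: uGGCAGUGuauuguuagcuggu
miR-449c-5p: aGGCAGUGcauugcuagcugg
Position by position from the 5′ end, miR-132 and miR-212 were identical at 17 of 22 bases, let-7b and let-7c at 21 of 22, let-7b and let-7g at 18 of 22, and miR-182 and miR-96 at 12 of 23. The strands of miR-129, miR-128, miR-138 and let-7c are made by 2 loci each, and those of miR-124 and miR-9 by 3 loci each, and their counts depend on how reads that match several loci were treated, which is not given in the sources used here.

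Depth differed between the passages, and its part in the results was not tested. Total counts per library had a lowest, median and highest value of 1643431, 3469486.5 and 4980887 in the second passage, against 1164449, 2708876 and 4434691 in the first. The ranges overlapped widely, with a mean difference of 757607 counts (permutation test within ZT, two-sided, p = 0.00069, 100000 resamples). The second passage also had more hairpins with a count (641.3 ± 29.7 against 612.1 ± 38.3 in the first passage, SD, n = 30 each, p = 0.00119). Levels are given as CPM, which are counts brought to one library size, and the limit set by a count of 0 (3 counts) lay between 0.602 and 2.58 CPM by library, for counting error only. Library numbers fell into 9 stretches that hold these libraries, called runs here, whose purpose the labels do not state. Of the 9 runs, 6 hold both passages, 1 only the second and 2 only the first.

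A pair of libraries stood apart in marker miRNAs. The first-passage 0 h replicate 1 had 39703 CPM of miR-204, known from choroid plexus and retinal pigment epithelium, against a highest value of 11088.5 CPM (9 h replicate 12) among the 59 others. The second-passage 36 h replicate 4 had 12037 CPM of miR-182, against at most 6643 CPM in the 59 others, while a cortex library from 15 to 21 h, outside the comparison, reached 22773.5 CPM. Values without both are given beside the results they change. Of the tissue's own markers, the neuronal list (16 hairpins, of which 14 were tested) summed to a median of 25408 CPM in the second passage and 27508 CPM in the first. The miR-124 copies, which define neurons, were near 0, at a mean of 3.82 CPM or less; since 3 loci make the same strand, this level depends on how reads matching several of them were counted. Muscle and mesenchymal lists summed to at most 5.48 and 6.87 CPM in second-passage libraries and 4.61 and 10.8 CPM in first-passage libraries, and no member of either passed the filter on low counts.

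Cortical miRNA levels differed between the passages across a wide set of hairpins, mostly by small amounts. Of 1226 hairpins in the table, 929 had a count in these libraries and 398 passed the filter and were tested. At an adjusted p under 0.05 (edgeR quasi-likelihood test, Benjamini-Hochberg), 122 of the 398 differed (30.7%), with 70 higher (17.6%) and 52 lower (13.1%) in the second passage. The median log2 difference over all 398 was -0.01. Among the 122 the absolute log2 difference ran from 0.06 to 1.19 with a median of 0.24, and only 17 reached 0.5. In bulk tissue, fewer cells of a type and less of a miRNA per cell cannot be told apart. The called hairpins were also the better measured ones. Median mean levels were 264.7 CPM for those higher, 546.3 CPM for those lower and 43.6 CPM for those not called. The G and C content was averaged over the mature strands that RefSeq lists for each hairpin. It was known for 60 of 70 higher, 46 of 52 lower and 240 of 276 uncalled hairpins. Its median was 53.8% in the higher, 48.9% in the lower and 49.1% in the uncalled hairpins. That difference was not tested.

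The count changed when hours or runs were left out and when depth entered the fit. It was 46 without ZT3, 44 without ZT6, 77 without the libraries of the second run and 79 without those of the ninth. With run as a term 89 were called, 78 of them among the 122. With the log2 library total as a term 33 were called, all of them among the 122, and with run and total together 2 were called, let-7b and miR-6236, both lower. Depth, run and passage moved together in these libraries, and their parts in the result were not tested.

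**Figure D1:**
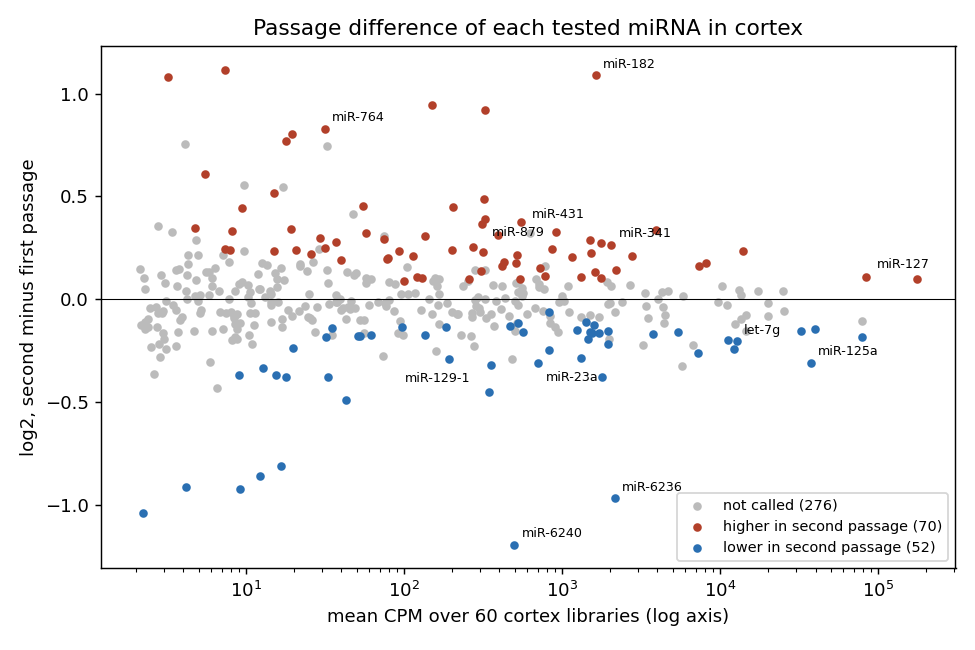
Each point is 1 of 398 tested hairpins, with mean level (CPM, log axis) across and the log2 difference, second minus first passage, upward; red marks the 70 higher, blue the 52 lower and grey the 276 not called. Differences past 1 in size were few, with miR-182 at 1.09 and miR-6240 at -1.19, and abundant hairpins such as miR-127 and let-7g lie near 0.

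Neuronal miRNAs went both ways. Of 14 tested members of the neuronal list, 3 were higher (miR-138-1, miR-138-2 and miR-153), 4 were lower (miR-129-1, miR-129-2, miR-128-2 and miR-9-3) and 7 were not called, against 17.6% and 13.1% over all hairpins. The list's median log2 difference was -0.10. The smallest p of all belonged to miR-129-1 (chromosome 6, 29022619 to 29022691 in GRCm38, in an exon of the lincRNA Gm3294), a brain-enriched miRNA that acts on potassium channel messages. Its lowest, median and highest levels were 270.3, 310.1 and 368.8 CPM in the second passage and 293.1, 388.6 and 668.0 CPM in the first. None of the 30 second-passage libraries lay above the first-passage median, although the ranges overlapped at their low ends. The log2 difference was -0.32 ± 0.06 (SE; adjusted p = 0.00013). The spread also differed, with an SD of 24.3 CPM in the second passage and 89.2 CPM in the first. Its other copy, miR-129-2 (chromosome 2, intron of Mir670hg), had medians of 1345 CPM in the second passage and 1445 CPM in the first, a log2 difference of -0.19 ± 0.05 (adjusted p = 0.00543).

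miR-128, a brake on neuronal excitability in mice, is cut from introns of R3hdm1 (miR-128-1) and Arpp21 (miR-128-2, chromosome 9, 112118636 to 112118711). For miR-128-2 the lowest, median and highest levels were 5332, 6503 and 8701 CPM in the second passage, against 3954.5, 7997 and 10788 CPM in the first, and 1 of 30 second-passage libraries exceeded the first-passage median. The log2 difference was -0.26 ± 0.05 (adjusted p = 0.000344), while miR-128-1 differed by -0.15 ± 0.08 and was not called (adjusted p = 0.121). The pair miR-138-1 and miR-138-2, which limit dendritic spine size, moved the other way. Medians were 427.9 CPM in the second passage and 332.6 CPM in the first for miR-138-1, and 148.5 and 114.5 CPM for miR-138-2 in the same order, with log2 differences of 0.31 for both (SE 0.10 and 0.08, adjusted p = 0.0123 and 0.00469). Both were higher in the second passage in all 6 runs that hold both passages. With the library total as a term both lost their calls (adjusted p = 0.29 and 0.175). Of the list, miR-153 was then higher and miR-129-1 and miR-128-2 lower.

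The activity-induced pair miR-132 and miR-212, which CREB switches on in active neurons, was lower in the second passage, beside 13.1% over all hairpins. They lie on chromosome 11 between 75173388 and 75173747, in an intron of 1700016P03Rik. miR-212 had a lowest, median and highest level of 1464, 1786 and 2476 CPM in the second passage and 1440, 2093 and 2666 CPM in the first. Only 2 of 30 second-passage libraries exceeded the first-passage median. The log2 difference was -0.22 ± 0.04 for miR-212 (adjusted p = 0.000344) and -0.24 ± 0.07 for miR-132 (adjusted p = 0.0106), whose medians were 10515 CPM in the second passage and 12920 CPM in the first. miR-132 lost its call with the library total as a term (adjusted p = 0.389), with the replicate block (0.107) and without ZT3 (0.104) or ZT6 (0.0504). The third listed member, miR-134, which restrains spine growth through Limk1, differed by -0.07 ± 0.04 (adjusted p = 0.211).

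Members of the let-7 family, which hold cells in the differentiated state, were lower or not called, and none was higher. Of 12 tested, 5 were lower: let-7b, let-7c-1, let-7c-2, let-7g and miR-98, beside 13.1% over all hairpins, with a list median of -0.12 against -0.01 over all. let-7g (chromosome 9, 106178840 to 106178927, intron of Wdr82) ran from 9810 through a median of 11659 to 13972 CPM in the second passage and from 9820 through 13633 to 16919 CPM in the first. A single second-passage library exceeded the first-passage median, and the log2 difference was -0.20 ± 0.04 (adjusted p = 0.000515). let-7b (chromosome 15, 85707319 to 85707403), which had medians of 3532 CPM in the second passage and 3900.5 CPM in the first, differed by -0.17 ± 0.04 (adjusted p = 0.000903) and was lower in all 6 runs that hold both passages. The abundant let-7i had a log2 difference of 0.05 ± 0.03 and was not called (adjusted p = 0.297). miR-99a, beside let-7c-1 on chromosome 16, was lower (-0.37 ± 0.09, adjusted p = 0.00232), while let-7f-2, the neighbour of miR-98, was not called (-0.09 ± 0.06, adjusted p = 0.343). With the library total as a term let-7b and let-7g kept their calls, and let-7c-1, let-7c-2 and miR-98 lost theirs.

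miR-125a (chromosome 17, 17830812 to 17830879, intron of Spaca6), the mammalian counterpart of worm lin-4, was among the abundant hairpins that were lower. Its lowest, median and highest levels were 25753, 33111 and 61110 CPM in the second passage, against 29485, 39622 and 61256 CPM in the first. All but 3 second-passage libraries lay below the first-passage median, with a log2 difference of -0.31 ± 0.06 (adjusted p = 0.000344). In the cluster of miR-23a and miR-27a on chromosome 8, known in endothelial and blood cells, miR-23a (84208518 to 84208592) had 352.1, 613.5 and 831.0 CPM as its lowest, median and highest in the second passage and 386.0, 802.2 and 1019 CPM in the first. A single second-passage library exceeded the first-passage median. The log2 difference was -0.31 ± 0.06 for miR-23a (adjusted p = 0.00014) and -0.25 ± 0.09 for miR-27a (adjusted p = 0.0353). The paralogous miR-23b and miR-27b on chromosome 13 were lower by smaller amounts, with log2 differences of -0.16 ± 0.04 and -0.14 ± 0.05 (adjusted p = 0.00156 and 0.0247). miR-27a, miR-23b and miR-27b lost their calls with run as a term and with the library total as a term, while miR-23a kept its call with either. The call of miR-27a was also lost with limma voom, with the replicate block and in 5 of 60 fits that left out 1 library.

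**Figure D2:**
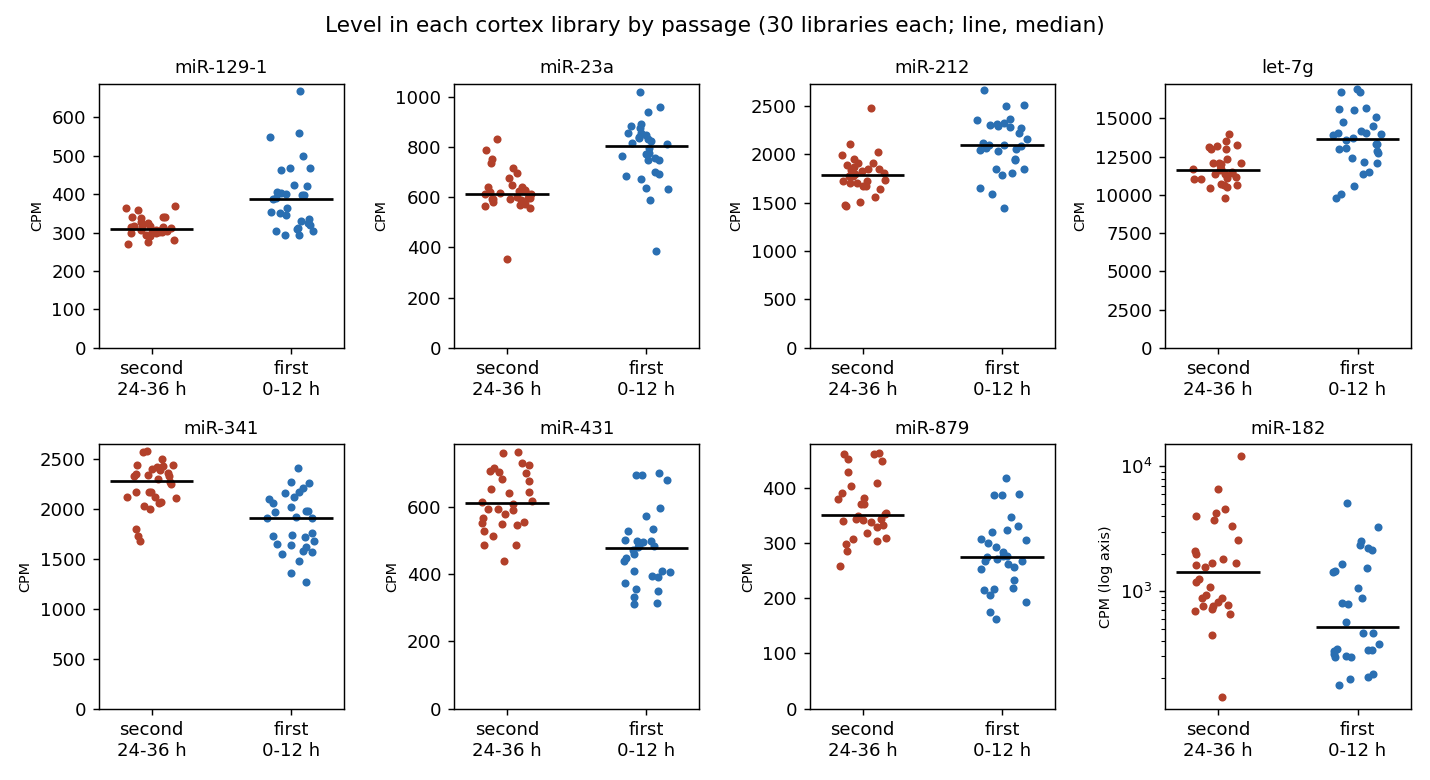
Each point is 1 cortex library, with 30 of the second passage (left) and 30 of the first (right) in each panel, level in CPM upward (log axis for miR-182) and a line at the median. Second-passage libraries sit lower for miR-129-1, miR-23a, miR-212 and let-7g and higher for miR-341, miR-431, miR-879 and miR-182, with overlap in every panel.

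Of 48 tested hairpins listed for the imprinted Dlk1-Dio3 locus on chromosome 12, 11 were higher, 2 were lower and 35 were not called. This was close to the 30.7% called over all hairpins (17.6% higher, 13.1% lower). The median log2 difference was 0.02. In the upstream group, 11 tested hairpins between 109563692 and 109595388, 7 were higher, miR-434 was lower and 3 were not called, while among 34 in the downstream group between 109709060 and 109747960 there were 2 higher (miR-300 and miR-381), 1 lower (miR-379) and 31 not called. These groups hold only hairpins with a RefSeq position, known for 349 of the 398 tested. miR-666, which was called higher (edgeR, adjusted p = 0.000344), is counted neither in the list nor in a group. The difference between the 2 groups was not tested. miR-431, read antisense to the paternal Rtl1 gene, had 439.3, 613.0 and 764.3 CPM as its lowest, median and highest in the second passage and 311.6, 477.2 and 701.7 CPM in the first. In 29 of 30 second-passage libraries it exceeded the first-passage median. Its log2 difference was 0.38 ± 0.07 (adjusted p = 0.00014).

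The neighbours miR-127 and miR-434 are both among the 5 most abundant hairpins here, and they went opposite ways. miR-127 had medians of 179336 CPM in the second passage and 165566 CPM in the first, a log2 difference of 0.10 ± 0.04 (adjusted p = 0.0353). For miR-434 the medians were 69428 CPM in the second passage and 83003 CPM in the first, a log2 difference of -0.18 ± 0.05 (adjusted p = 0.00691). Both calls were lost with the library total as a term (adjusted p = 0.328 and 0.379). That of miR-127 was also lost in 32 of 60 fits that left out 1 library and with DESeq2 (adjusted p = 0.0716). miR-341 (109611500 to 109611595, intron of Rian) lies between the 2 groups. Its lowest, median and highest levels were 1677, 2283 and 2581 CPM in the second passage and 1269, 1910 and 2408 CPM in the first, with 27 of 30 second-passage libraries above the first-passage median (log2 difference 0.27 ± 0.05, adjusted p = 0.00013). Of hairpins outside this locus, miR-296 and miR-298, which lie together at Gnas and were picked from the calls, had log2 differences of 0.28 ± 0.10 and 0.37 ± 0.11. miR-3099, in an intron of Usp29, exceeded the first-passage median in all 30 second-passage libraries (log2 difference 0.45 ± 0.09, adjusted p = 0.000344).

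The miR-183 cluster (chromosome 6, 30165918 to 30169737), which is best known from photoreceptors and other sensory cells, had large differences. All 3 members were higher in the second passage, beside 17.6% over all hairpins. The log2 differences were 1.12 ± 0.35 for miR-96, 1.09 ± 0.30 for miR-182 and 0.94 ± 0.30 for miR-183 (adjusted p = 0.0131, 0.00525 and 0.0161). miR-96 was scarce, at medians of 4.99 CPM in the second passage and 2.60 CPM in the first on the scale of all 78 cortex libraries. With the library total as a term miR-183 lost its call, while miR-96 and miR-182 kept theirs. miR-182 ran from 142.5 through a median of 1414 to 12037 CPM in the second passage, against 175.9, 510.8 and 5111 CPM in the first. The ranges overlapped almost fully, and 28 of 30 second-passage libraries exceeded the first-passage median. Without both libraries that stood apart the values were 0.91 ± 0.30 for miR-182 (adjusted p = 0.015), 0.76 ± 0.31 for miR-183 (0.0492) and 0.75 ± 0.33 for miR-96, which was then not called (0.0742). The 5 tested miR-200 family members, which mark epithelium and olfactory neurons, were not called. Their summed level had a median of 105.6 CPM and a highest value of 1706 CPM in the second passage, against 115.9 and 772.0 CPM in the first, and whether it moves with the miR-183 cluster was not tested.

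The choroid plexus list held 2 called members, and the list of miRNAs in introns of the serotonin receptor gene Htr2c held 1, a count that changed without the libraries that stood apart. Of 6 tested choroid plexus members, miR-449a and miR-449c, known from ciliated cells, were higher, beside 17.6% over all hairpins, with every library and also without both that stood apart. The most abundant marker, miR-204, differed by -0.32 ± 0.15 (adjusted p = 0.11) and miR-34b by -0.16 ± 0.12 (adjusted p = 0.334), and neither was called. miR-449a ran from 8.23 through 20.7 to 52.2 CPM in the second passage and from 1.92 through 12.6 to 33.4 CPM in the first. Of 30 second-passage libraries, 26 lay above the first-passage median (log2 difference 0.77 ± 0.20, adjusted p = 0.00378). miR-449c differed by 1.08 ± 0.22 (adjusted p = 0.000344), at medians of 4.06 CPM in the second passage and 1.41 CPM in the first. These medians are on the scale of all 78 cortex libraries. That of the first passage lay within the limit of 0.602 to 2.58 CPM set by a count of 0. The list's summed level ran from 4415 to 9352 CPM in the second passage and from 4121 to 45052 CPM in the first, with medians of 5856 and 5596 CPM. Of the 5 hairpins on the Htr2c list, miR-764 alone was called, beside 17.6% called higher over all hairpins. miR-3552 lies in the same stretch of chromosome X as miR-764 (146999405 to 147009527) but is not on the list. It was also called higher, at medians of 6.60 CPM in the second passage and 3.41 CPM in the first on the scale of all 78 cortex libraries. The level of miR-764 exceeded the first-passage median in all 30 second-passage libraries. Its lowest, median and highest levels were 20, 39.9 and 55.8 CPM in the second passage and 6.04, 17.8 and 128.0 CPM in the first, a log2 difference of 0.83 ± 0.18 (adjusted p = 0.000515). Without both libraries that stood apart, when more hairpins were called over all, the 5 were all called higher. The list median became 0.70, against 0.32 with every library. miR-1298 then differed by 0.70 ± 0.17 (adjusted p = 0.00138), against 0.32 ± 0.26 (adjusted p = 0.372) with every library.

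The largest falls belonged to a few hairpins of uneven level. miR-6236 and miR-6240, the 2 members of the repeat-like list, were both lower, beside 13.1% over all hairpins. miR-6236 ran from 278.7 through a median of 1352 to 4315 CPM in the second passage and from 599.3 through 2506 to 7260.5 CPM in the first. It lay above the first-passage median in 4 of 30 second-passage libraries. The log2 difference was -0.96 ± 0.21 (adjusted p = 0.000748), and -1.19 ± 0.30 for miR-6240 (adjusted p = 0.00237), whose medians were 218.4 CPM in the second passage and 557.1 CPM in the first. miR-5100, miR-6538 and miR-6239, at medians of 11.3, 5.23 and 1.29 CPM in the second passage and 18.4, 11.2 and 2.49 CPM in the first, differed by -0.81, -0.92 and -1.04. With the library total as a term none of the 5 was called, at adjusted p from 0.101 for miR-6236 to 0.299 for miR-5100. With the log2 level of miR-6236 as a term, 6 of the other hairpins were called in place of 122, and what its level reflects was not tested.

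Of the remaining hairpins with the smallest p, most were higher and of middling level. miR-879 (chromosome 5, 9375704 to 9375779) had 258.8, 351.4 and 464.2 CPM as its lowest, median and highest in the second passage and 163.0, 275.7 and 418.1 CPM in the first. It exceeded the first-passage median in 29 of 30 second-passage libraries (log2 difference 0.39 ± 0.07, adjusted p = 0.000133). miR-378a, which acts on fat and energy metabolism, had medians of 2961 CPM in the second passage and 2571 CPM in the first, a log2 difference of 0.21 ± 0.04 (adjusted p = 0.000344). It was higher in all 6 runs that hold both passages, as were miR-676 and miR-300. The related miR-301a and miR-301b, of the miR-130 family, differed by 0.24 ± 0.05 and 0.25 ± 0.06 (adjusted p = 0.000494 and 0.000861). The others were miR-666 at 0.49 ± 0.10, miR-676 at 0.21 ± 0.04, miR-300 at 0.16 ± 0.03 and miR-664 at -0.13 ± 0.03. Of the 5 most abundant hairpins, miR-22 was higher by 0.11 ± 0.03 and miR-27b lower, and miR-30a was not called (-0.11 ± 0.05, adjusted p = 0.0755). miR-5099 was not called (-0.06 ± 0.06, adjusted p = 0.469).

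The calls were also set out by position. Of 349 tested hairpins with a RefSeq position, those within 10 kb of each other formed 39 clusters of 2 or more. In 13 clusters at least 2 members were called; in 10 of these the called members all lay in 1 direction. The exceptions were both Dlk1-Dio3 groups and the cluster of miR-23b, miR-27b and miR-24-1, where miR-24-1 was higher. Clusters with every tested member higher were those of miR-182, miR-449a, miR-301b and miR-296, and those with every tested member lower were those of miR-132, let-7b and miR-99a. Whether 10 of 13 exceeds what unrelated hairpins would give was not tested. Clusters were set by distance alone, and whether their members share a transcript was not tested. Hairpins cut from a common transcript are not separate observations.

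Several lists showed few calls or none. No member was called among 4 red cell, 3 vessel, 3 liver-enriched and 4 miR-29 hairpins tested by edgeR, against 30.7% over all hairpins. The vessel miRNA miR-126a differed by -0.12 ± 0.05 (adjusted p = 0.0676). Single members were called in others: miR-223 of myeloid cells was lower (-0.33 ± 0.11, 1 of 5 immune hairpins), as was miR-10b of the Hox clusters (-0.45 ± 0.14, 1 of 2). miR-219a-1 (0.24 ± 0.07, 1 of 3 oligodendrocyte hairpins), miR-7a-2 (0.51 ± 0.15, 1 of 4 neuroendocrine) and the hypoxia-linked miR-210 (0.24 ± 0.09, 1 of 3) were higher. Over all hairpins 17.6% were higher and 13.1% lower, which stands beside these single calls and the list linked to the circadian clock. Of the 28 tested hairpins on that list, 9 were higher, 5 were lower and 14 were not called. Many of them are also in other lists, among them miR-132, miR-212, miR-219a-1, miR-433, miR-192, miR-142a, the miR-29 hairpins and the miR-183 cluster. Leaving out both libraries that stood apart changed several of these counts. Then 2 of 3 vessel hairpins were lower, 2 of 4 neuroendocrine were higher and 1 lower, and 1 of 3 hypoxia and stress hairpins was lower with none higher. In the same fit 14 of 48 Dlk1-Dio3 hairpins were higher and 2 lower, and 3 of 14 neuronal were higher and 5 lower. Of 29 clock-linked hairpins, 8 were higher and 6 lower. More hairpins were called over all in that fit than with every library. With the library total as a term 33 hairpins were called over all. In that fit 5 of 48 Dlk1-Dio3 hairpins were higher and none lower, and 3 of 29 clock-linked were higher and 1 lower. Lower ones included 2 of 12 let-7 and 1 of 3 activity-regulated hairpins. No immune, Hox cluster, oligodendrocyte, neuroendocrine or hypoxia and stress hairpin was called there. miR-223, miR-10b, miR-219a-1, miR-7a-2 and miR-210 thus lost their calls.

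The difference between passages was called at the middle hours and not at the ends. With each ZT tested alone, 6 libraries against 6 and 407 hairpins in each test (edgeR quasi-likelihood), 0 were called at ZT0 (0%), 7 at ZT3 (1.72%), 20 at ZT6 (4.91%), 5 at ZT9 (1.23%) and 0 at ZT12 (0%). The number with an unadjusted p under 0.05 was 38, 88, 96, 75 and 4 from ZT0 to ZT12, beside 20.35 expected without any difference. Of the 122 hairpins called over all hours, 102, 121, 121, 113 and 102 had the same sign at ZT0, ZT3, ZT6, ZT9 and ZT12. The 122 were chosen by the fit over all hours of the same libraries, which favours that sign at each hour. The agreement is therefore not a separate test. The dependence on ZT itself was not called for any hairpin (interaction of passage with ZT, 0 of 407, 0%, 31 at an unadjusted p under 0.05), so the hours were not shown to differ. The smallest interaction p-values belonged to miR-670, miR-879 and miR-3547 (adjusted p = 0.241 for each). Without 0 h replicate 1, which enters these fits only through the shared spread and scaling at hours other than ZT0, 19 were called at ZT3, 35 at ZT6 and 30 at ZT9.

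miR-879 is set out by hour. It was among the hairpins with the smallest interaction p-values (edgeR, adjusted p = 0.241, not called), so it is not a typical case. In the second passage its median was 352 CPM at 24 h, 362 CPM at 27 h, 451 CPM at 30 h, 341 CPM at 33 h and 345 CPM at 36 h. In the first it was 277 CPM at 0 h, 259 CPM at 3 h, 217 CPM at 6 h, 269 CPM at 9 h and 367 CPM at 12 h. The 2 passages were close at ZT12 and farthest apart at ZT6, where the second ran from 308 to 462 CPM and the first from 163 to 388 CPM (log2 difference 0.77 ± 0.14, adjusted p = 0.000228). miR-129-1 had medians of 311 CPM at 30 h and 410 CPM at 6 h, a log2 difference of -0.55 ± 0.13 at ZT6 (adjusted p = 0.0088), against 302 CPM at 36 h and 333 CPM at 12 h. miR-764 had its 6 libraries at 30 h between 38.8 and 54.2 CPM, all above the 6 at 6 h, between 8.03 and 29.6 CPM (log2 difference 1.62 ± 0.37, adjusted p = 0.007). miR-125a led at ZT3, at -0.54 ± 0.13 (adjusted p = 0.0264), and miR-700, miR-670, miR-152, miR-449a and miR-148a were those called at ZT9.

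**Figure D3:**
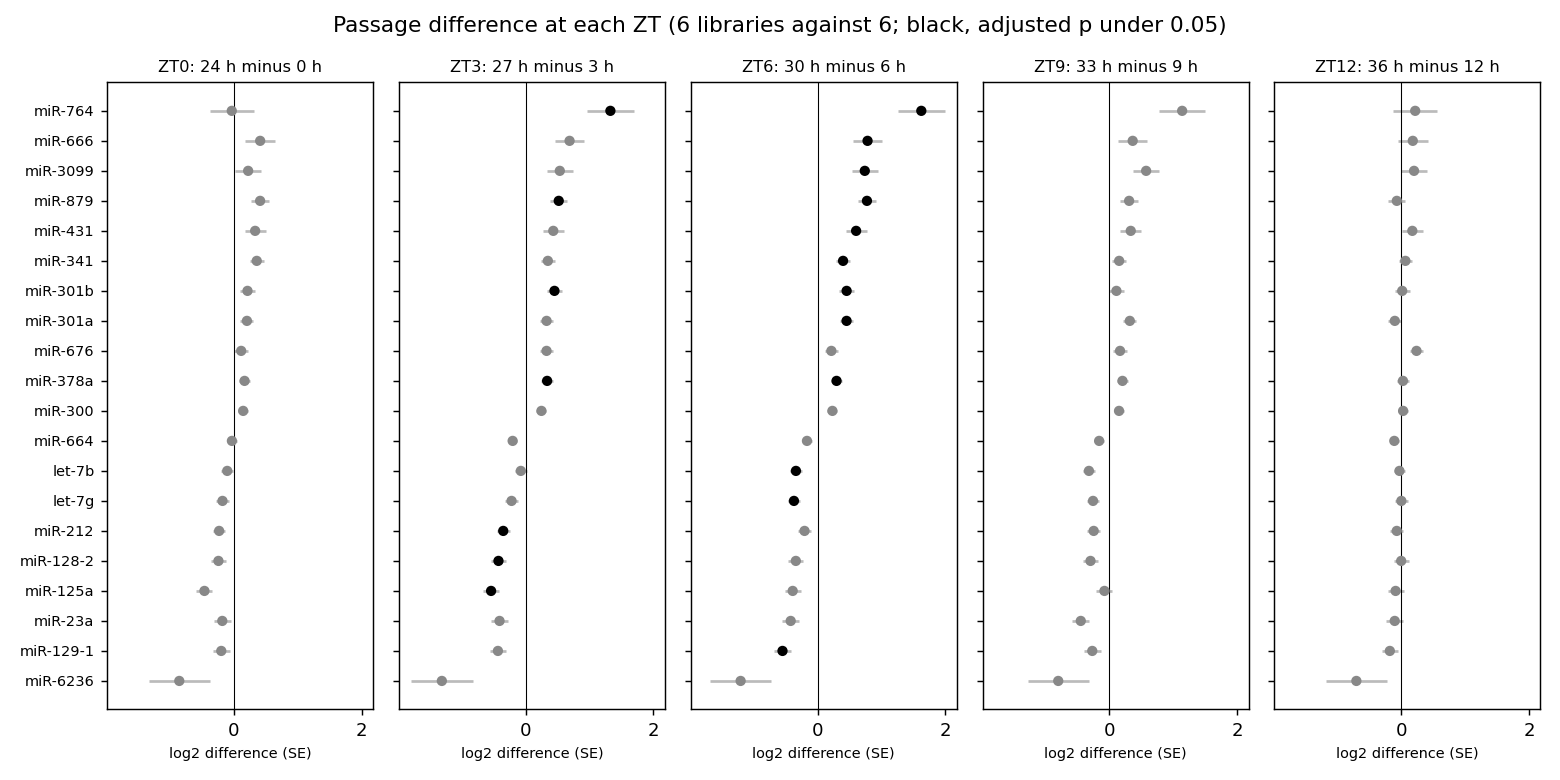
Each panel is 1 ZT with the log2 difference, second minus first passage, across (SE bars, 6 libraries against 6) for the 20 hairpins with the smallest pooled p and a mean of at least 10 CPM; black marks an adjusted p under 0.05. Points lie farthest from 0 at ZT3 and ZT6 and closest to it at ZT12, where none was called.

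Variation with ZT was called in the first passage and not in the second. Over ZT0 to ZT12, 0 of 407 hairpins varied in the second passage (0%, edgeR quasi-likelihood, 15 at an unadjusted p under 0.05) and 9 of 407 in the first (2.21%, 59 at an unadjusted p under 0.05). Among the 9 in the first passage were all 5 hairpins on the Htr2c list, and the smallest p-values were those of miR-764, miR-448, miR-1298, miR-879 and miR-1264 (adjusted p = 0.0419 for each). miR-448 had 522 CPM in 0 h replicate 1, and miR-1298 had 6040 CPM there. Without that library 5 were called in the first passage, and 0 without both libraries that stood apart. The interaction above is the test of a difference between the passages in their ZT pattern, and it called none.

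The passage difference of cortex was set against that of each other tissue in 1 fit over 453 hairpins. The labels' animal codes are shared between tissues: that of a cortex library recurs on 57 of 57 hypothalamus, 59 of 59 liver and 38 of 39 striatum libraries, and that fit treats libraries as independent. In it 58 hairpins were called between passages in cortex (31 higher, 27 lower), 1 in hypothalamus, 37 in striatum (22 higher, 15 lower) and 1 in liver. Alone, hypothalamus (30 second-passage and 27 first-passage libraries) had 0 of 384 hairpins called between passages (edgeR, 4 at an unadjusted p under 0.05), striatum (21 and 18) 0 of 381 (50 unadjusted) and liver (29 and 30) 0 of 246 (10 unadjusted). The difference between tissues was called for 16 hairpins against hypothalamus (3.53%), 55 against striatum (12.1%) and 6 against liver (1.32%). With the animal code as a block (limma voom) the counts were 32, 57 and 12. Median library totals of second and first passage were 3469486.5 and 2708876 counts in cortex, but 2005300.5 and 2184804 in hypothalamus, 2100086 and 2001216 in striatum and 2878541 and 2867896.5 in liver. With the library total as a term the count was 0 against hypothalamus and 0 against liver, and 35 against striatum.

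miR-6236 had the smallest p against hypothalamus and liver, with a log2 passage difference of -0.96 ± 0.18 in cortex, against 0.21 ± 0.18 in hypothalamus and 0.13 ± 0.18 in liver (adjusted p of the difference 0.00444 and 0.012). miR-187 differed by 0.91 ± 0.17 in cortex, against -0.16 ± 0.18 in hypothalamus and -0.56 ± 0.22 in striatum (adjusted p = 0.00578 and 9.8e-05). miR-23a differed by -0.32 ± 0.07 in cortex, against 0.03 ± 0.07 in hypothalamus and 0.20 ± 0.09 in striatum (adjusted p = 0.0317 and 0.000495). Each of these 3 was called against more than 1 other tissue, but with the library total as a term none was called against hypothalamus or liver. Against hypothalamus miR-764 (0.81 ± 0.15 in cortex, -0.02 ± 0.14 in hypothalamus) and miR-3099 (0.44 ± 0.09 and -0.02 ± 0.09) also differed. Against striatum they were miR-204 (-0.34 ± 0.16 in cortex, 0.995 ± 0.20 in striatum), miR-378a (0.20 ± 0.05 and -0.22 ± 0.07) and miR-181d (-0.17 ± 0.06 and 0.32 ± 0.08). The rest against liver were let-7g (-0.21 ± 0.04 in cortex, 0.04 ± 0.04 in liver), miR-148a (0.33 ± 0.08 and -0.08 ± 0.08) and miR-182 (1.10 ± 0.25 and -0.13 ± 0.24), of which miR-182 was no longer called without the 2 cortex libraries that stood apart (adjusted p = 0.0877).

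**Figure D4:**
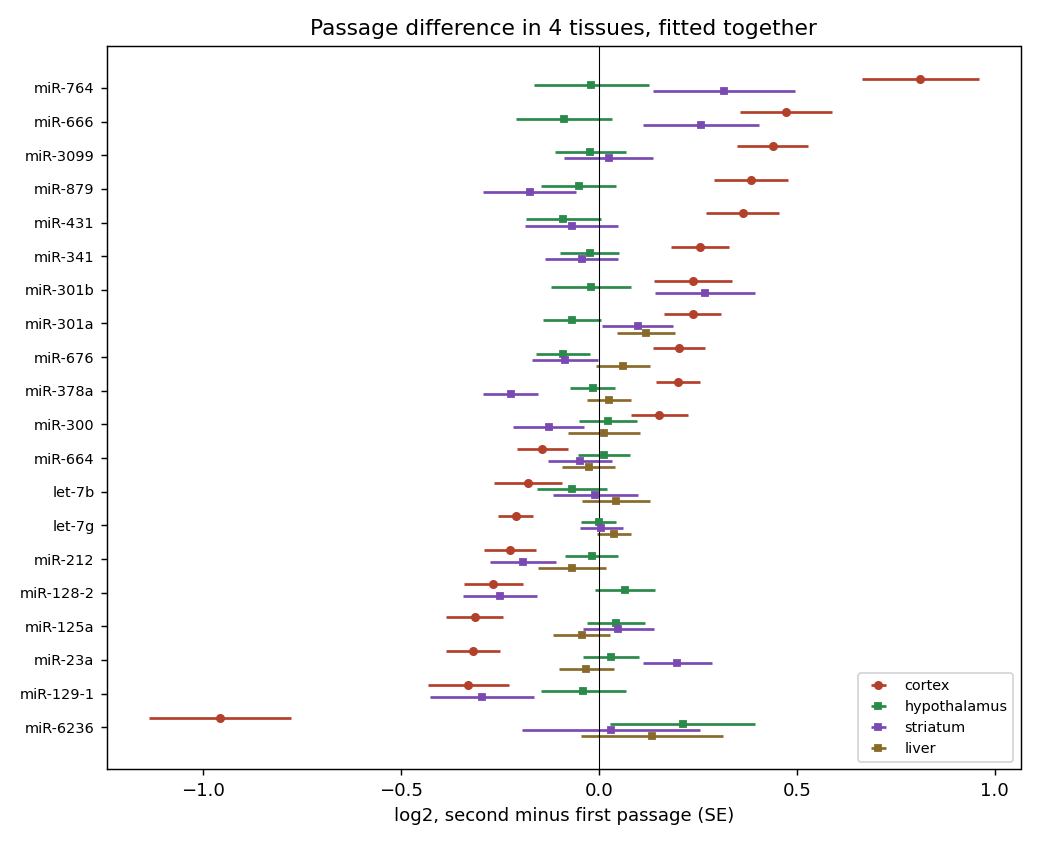
Log2 difference between second and first passage (SE bars) in cortex (red), hypothalamus (green), striatum (purple) and liver (brown) for the 20 cortex hairpins with the smallest p, with points left out where the tissue's mean was under 10 CPM. Cortex points lie away from 0 for every hairpin, since they were chosen by it, and miR-6236 shows the widest gap, at -0.96 in cortex and 0.21 in hypothalamus.

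The same terms were entered for the single hairpins. Of the 20 with the smallest p, all but miR-6236 kept an adjusted p under 0.05 with the library total as a term, and all but miR-301b (0.105) kept it with run as a term. With the total as a term miR-129-1 differed by -0.22 ± 0.06 (adjusted p = 0.0274), miR-341 by 0.16 ± 0.04 (0.0123), miR-879 by 0.31 ± 0.07 (0.0123) and miR-431 by 0.21 ± 0.05 (0.0166). With total and run together only let-7b and miR-6236 stayed under 0.05 (0.0449 for each). No called hairpin changed sign with either term alone.

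**Figure D5:**
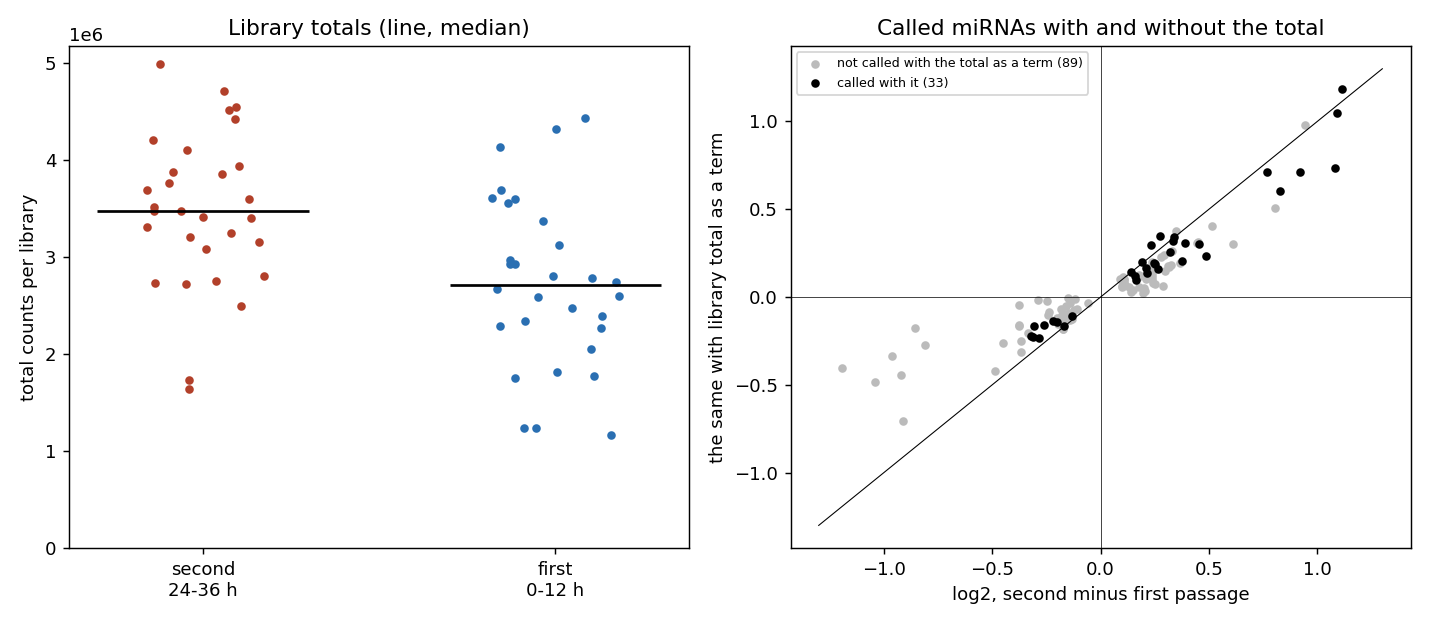
Left, total counts of each library for the second passage (left points) and the first, with a line at the median. Right, the log2 passage difference of the 122 called hairpins without (across) and with (upward) the library total as a term, the diagonal marking equality; the 33 black points were called both ways and the 89 grey ones lie mostly nearer to 0 with the term.

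Libraries of the hours between the passages, 15, 18 and 21 h, held levels between those of the passages for most of the leading hairpins. On the scale of all 78 cortex libraries, miR-129-1 had a median of 387.3 CPM at 0 to 12 h, 351.4 CPM in the 18 libraries of 15 to 21 h and 309.0 CPM at 24 to 36 h. miR-23a had 799.4, 744.6 and 611.3 CPM in the same order of time, and miR-879 had 274.7, 303.4 and 350.1 CPM. miR-341 was an exception, with 1903 CPM at 0 to 12 h, 1887 CPM at 15 to 21 h and 2275 CPM at 24 to 36 h. The leading hairpins were chosen by their gap between the passages, which favours levels in between at other hours. Their order is therefore not a separate test. The hours from 15 to 21 h have no counterpart in the other cycle, so ZT and passage cannot be told apart there.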

How the data were processed

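Small RNA from right cortex was sequenced, and the authors deposited raw counts of reads per miRNA hairpin and library without scaling them. STAR 2.7.3a, HTSeq 0.10.0 and GRCm38 (mm10) stand in the submitters' processing notes; trimming and multi-mapping reads are not given in the sources used here. A hairpin count adds both arms. Counts were fitted in R 4.3.3 with edgeR 4.0.16 (TMM scaling, filterByExpr, quasi-likelihood F test, Benjamini-Hochberg, threshold 0.05), with ZT as a factor; SE is the log2 difference over the square root of F. CPM values are TMM-scaled. Hours were tested in a 10-group fit and tissues in 1 joint fit. DESeq2 1.42.0 and limma 3.58.1 served as alternatives, and the test was checked on simulated counts. The text names the 20 called hairpins with the smallest p and a mean of at least 10 CPM, the 5 most abundant, miR-5099, list examples and the 5 smallest p of each interaction. Hairpins named in list and cluster accounts outside this, such as miR-138-1, miR-138-2, miR-187 (passage), miR-449c, miR-5100 and miR-6538, were picked with their values in view. The comparison, the 21 lists and the tests were chosen with earlier results of these data known. Python 3.11.15 with matplotlib 3.10.9 drew the plots.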

Additional observations from a re-analysis of the deposited data

Results flagged for a closer look

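In 17 of 90 sets of 6 libraries (9 quantities at 10 time points), 1 library lay far from the other 5 by Dixon's criterion, which flags about 1 set in 20 by chance. miR-204 gave 5 of these: 39703 CPM in 0 h replicate 1 (the others at most 5080), 7490 in 3 h replicate 12, 11088.5 in 9 h replicate 12, 7689 in 33 h replicate 9 and 8521 in 36 h replicate 10. miR-182 gave 3, with 4522 CPM in 24 h replicate 3, 3720 in 30 h replicate 7 and 12037 in 36 h replicate 4. miR-341 was high in 6 h replicate 5 (2055 CPM) and low in 12 h replicate 8 (1719) and 30 h replicate 10 (1798). miR-23a was high in 30 h replicate 10 (789.5 CPM) and low in 9 h replicate 3 (671.5), where miR-431 was high (696.9). miR-129-1 was high in 0 h replicate 5 (549.2 CPM) and 6 h replicate 2 (668.0), and miR-6236 in 0 h replicate 5 (6963 CPM).

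The passage difference itself differed between cortex and another tissue in 14 named cases, given as the log2 difference in cortex minus that in the other tissue. Against hypothalamus they were miR-187 at 1.07, miR-764 at 0.83, miR-3099 at 0.46, miR-23a at -0.35 and miR-6236 at -1.17. Against striatum they were miR-187 at 1.47, miR-378a at 0.42, miR-181d at -0.48, miR-23a at -0.52 and miR-204 at -1.34. Against liver they were miR-182 at 1.23, miR-148a at 0.40, let-7g at -0.25 and miR-6236 at -1.09. All kept an adjusted p under 0.05 without the 2 cortex libraries that stood apart, except miR-182.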

How the results depend on the processing

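The count of 122 called hairpins was 105 to 146 over the 60 fits that left out 1 library each. It was 123 and 112 with size factors and library totals as scaling, 126 with DESeq2, 123 with limma voom and 139 without both libraries that stood apart. It moved to 33 with the library total as a term, 2 with total and run, 6 with the miR-6236 level, 46 without ZT3, 44 without ZT6, 77 and 79 without the libraries of the second and the ninth run, where the cause was not tested. With the replicate number as a block it was 72, of which 67 were among the 122; no number occurs in both passages at a ZT, so the numbers pair no libraries.

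At ZT3, ZT6 and ZT9 the calls numbered 16, 31 and 1 with run as a term, 0, 12 and 0 with the replicate block, 0, 1 and 8 with the library total, and 20, 35 and 26 without both libraries that stood apart (19, 35 and 30 without 0 h replicate 1 alone, and 9, 24 and 7 without 36 h replicate 4 alone). Library totals as scaling gave 18 at ZT3. The 9 hairpins that varied with ZT in the first passage became 24 with run, 0 with the library total, 0 without both libraries that stood apart, 5 without 0 h replicate 1 and 14 without 36 h replicate 4. Against hypothalamus, striatum and liver the calls numbered 0, 35 and 0 with the library total. Against hypothalamus they numbered 26 with run, 31 without both libraries and 32 with the animal code as a block in limma voom, and against liver 16, 10 and 12, with 11 for library totals as scaling.

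Among the named hairpins signs changed for uncalled miR-126a, to 0.0049 with the library total, and with the miR-6236 level for uncalled miR-126a to 0.013 and miR-30a to 0.043 and for called miR-6240 to 0.023 and miR-5100 to 0.051, where neither kept its call. Alternatives added after the data were seen are the library total, the miR-6236 level and the libraries that stood apart. Limits: depth, run and passage overlap; hairpins with low counts in most libraries were filtered out; copies of a mature strand cannot be separated.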
